A study of Schizosaccharomyces pombe with 24 samples.

Results

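The Sty1 pathway is the stress-activated MAP kinase cascade of the fission yeast Schizosaccharomyces pombe. The kinase Wis1 phosphorylates the MAP kinase Sty1, which in turn acts on the transcription factor Atf1, and Atf1 with its partner Pcr1 switches on genes that protect the cell. Osmotic, oxidative and heat stress and the loss of nutrients, nitrogen included, are known to activate it, and the phosphatase Pyp2, itself an Atf1 target, turns Sty1 off again. Small RNA from these loci is described here for 10 genes, chosen by name, of 6878 counted features: the kinases sty1 (SPAC24B11.06c) and wis1 (SPBC409.07c), the transcription factor gene atf1 (SPBC29B5.01), the phosphatase gene pyp2 (SPAC19D5.01), and the target genes cta3 (SPBC839.06), ctt1 (SPCC757.07c), gpx1 (SPBC32F12.03c), gpd1 (SPBC215.05), tps1 (SPAC328.03) and ntp1 (SPBC660.07). All 10 are protein-coding genes, and each had a count in each of the 24 libraries.

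RNA of 20 to 30 nt was gel-purified from cells grown in minimal medium and moved to the same medium without nitrogen at 32 °C, and read counts per transcript were deposited. The 4 strains were wild type (975 h+, labelled wt) and 3 strains of the same 975 h+ description in which a NatMX6 marker replaces ago1 (Argonaute; ago1D), clr4 (the histone H3 lysine methyltransferase of heterochromatin; clr4D) or dcr1 (Dicer; dcr1D). The times were 0 h (nitrogen present until then), 1, 2, 4, 10 and 24 h without nitrogen, with 1 library for each strain and time and hence 6 per strain. The counts hold any RNA of that length, pieces of mRNA included, and are not mRNA levels. The labels do not say whether libraries came from separate cultures or how many isolates of a deletion were used, so the p values speak only of the spread among these libraries.

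Gene counts per library ran from 117245 to 2121235, and 67.3% to 97.4% of the reads in a library were set aside for low mapping quality. ago1 had 11 to 35 counts per wt library and 0 to 8 per ago1D library. clr4 had 9 to 31 counts in wt and 25 to 85 in the libraries labelled clr4D, and dcr1 had 16 to 37 in wt and 23 to 79 in those labelled dcr1D, so these counts do not bear out the 2 labels, whose deleted part is not given; "clr4D" and "dcr1D" below mean the libraries so labelled. By its profile over all genes each of the 18 libraries of wt, clr4D and dcr1D was closest to the other strains at its own time, against 3 of 6 for ago1D. The library labelled ago1D 0 h was closest to 1 h (r = 0.6 over genes), that labelled 1 h to 2 h (0.425) and that labelled 2 h to 0 h (0.835). The ago1D libraries were therefore kept out of the tests by time, and their values by time are given as labelled. The strain tests kept all 24 libraries, matched by labelled time. For ago1D at 0, 1 and 2 h that matching goes against the profiles, and all strains share 1 estimate of the spread. Libraries of 24 h held 5.29% to 7.89% of gene counts in mitochondrial features against 31.6% to 46.5% at 0 h, and all levels and fold changes below are relative to the bulk of genes (TMM normalisation).

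The wild-type levels ran down from gpd1 to wis1, with cta3 and pyp2 as a low pair. On the scale of normalised CPM (counts scaled to a common library size) per kb of exon, gpd1 stood highest at 525 ± 388 (SD over the 6 wt libraries), before gpx1 (418 ± 352), tps1 (202 ± 165), ctt1 (149 ± 143), ntp1 (107 ± 90.0), atf1 (83.9 ± 36.1), sty1 (57.0 ± 9.90) and wis1 (44.9 ± 7.32). cta3 (5.18 ± 3.81) and pyp2 (4.87 ± 2.62) were lowest. The SD here holds the time course. From gpd1 down to sty1, and between cta3 and pyp2, neighbours differ by less than the larger of their SDs, whereas sty1 and wis1 differ by slightly more and wis1 lies well above cta3. In wt, cta3 had 3 to 12 counts and pyp2 2 to 5 counts per library, so both levels are known only coarsely. In bulk RNA fewer cells of a type and less RNA per cell cannot be told apart.

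Neither kinase gene changed detectably over time or between strains. sty1, the MAP kinase itself, had 93.4, 92.5, 115, 112, 75.4 and 79.2 normalised CPM in wt at 0, 1, 2, 4, 10 and 24 h. Its clr4D values ran from 80.8 to 157, its dcr1D values from 61.1 to 148 and its ago1D values from 92.2 to 139, and all 3 ranges overlap that of wt. wis1, which encodes the kinase above Sty1, had 93.4, 141, 124, 121, 144 and 151 normalised CPM in wt, with 71.8 to 114 in clr4D, 71.5 to 120 in dcr1D and 41.7 to 125 in ago1D. wis1 lay below wt at 5, 6 and 5 of 6 matched times in ago1D, clr4D and dcr1D. That difference was small and did not pass (log2 fold changes -0.48, -0.45 and -0.37, SE 0.20 each, edgeR adjusted p = 0.2, 0.429 and 0.334). Neither gene passed the test for a change at any time (edgeR adjusted p = 0.146 for sty1 and 0.453 for wis1).

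**Figure D1:**
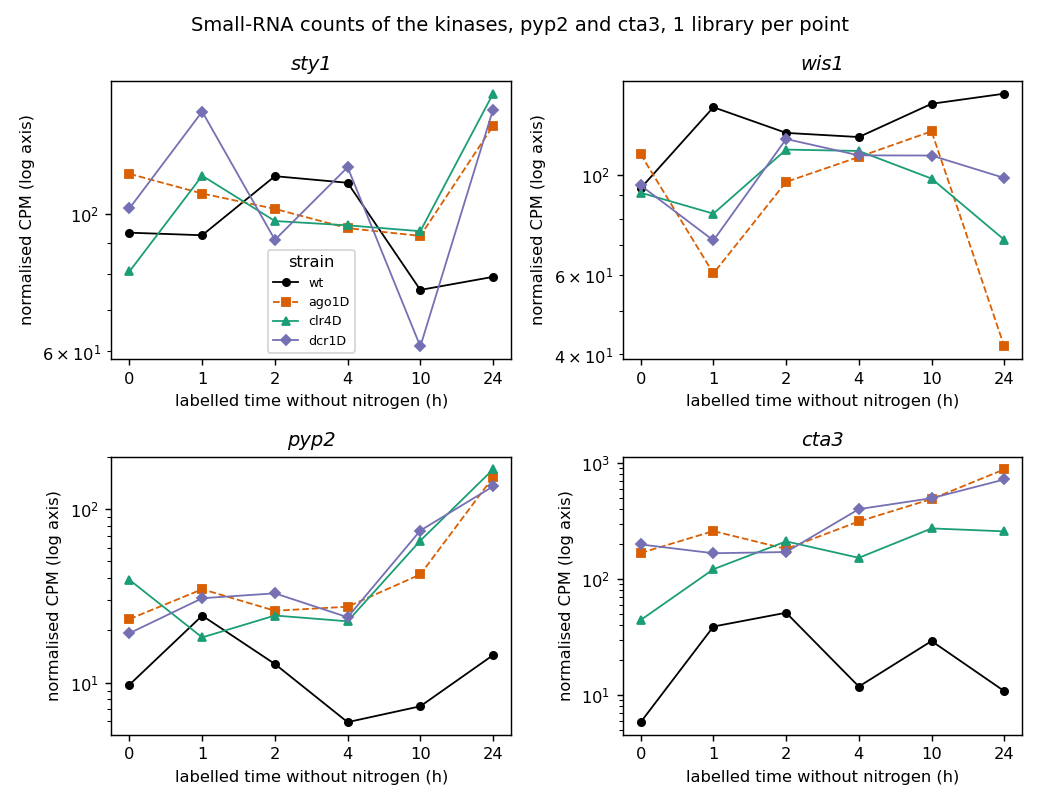
Normalised CPM (log axis) of sty1, wis1, pyp2 and cta3 against labelled hours without nitrogen, 1 point per library and 1 line per strain, with ago1D dashed because 3 of its time labels go against its profiles. sty1 and wis1 lines cross one another, whereas the 6 wt points of cta3 (5.84 to 51.2) lie below every ago1D and dcr1D point.

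The stress-protective targets showed a shared rise that was highest at 2 h. ctt1, the catalase gene, had 134, 448, 913, 172, 139 and 144 normalised CPM in wt at 0, 1, 2, 4, 10 and 24 h. In clr4D the same series was 86.0, 295, 609, 271, 167 and 294, and in dcr1D it was 94.7, 293, 479.9, 152, 117 and 148. All 3 strains were thus highest at 2 h and lower again at 4, 10 and 24 h. Over wt, clr4D and dcr1D together, with 3 libraries per time, ctt1 rose by a log2 fold change of 2.66 at 2 h (SE 0.28, edgeR adjusted p = 1.56e-07).

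gpx1, which encodes glutathione peroxidase, had the largest fitted rise at 2 h among these genes, though ctt1 and tps1 lie within about 2 SE of it. Its wt series was 79.7, 341, 794, 234, 180.1 and 191 normalised CPM, its clr4D series 93.9, 310, 593, 234, 175 and 153, and its dcr1D series 83.0, 388, 538, 201, 175 and 217. Each of these strains had its lowest gpx1 value at 0 h and its highest at 2 h. The log2 fold change against 0 h was 2.05 at 1 h (SE 0.21), 2.95 at 2 h (SE 0.21, edgeR adjusted p = 6.1e-10) and still 1.19 at 24 h (SE 0.22, adjusted p = 0.000151).

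gpd1 encodes glycerol-3-phosphate dehydrogenase, which makes the osmolyte glycerol. It had 504, 925, 2305, 591, 533 and 742 normalised CPM in wt, 566, 999, 2271, 773, 609 and 607 in clr4D and 508, 876, 1636, 546, 443 and 639.5 in dcr1D. The 2 h library of each strain stood well above the other 5. Its log2 fold change was 0.85 at 1 h (SE 0.19, edgeR adjusted p = 0.00142) and 2.01 at 2 h (SE 0.20, adjusted p = 7.2e-08), and it did not pass at 4, 10 or 24 h (0.31, 0.05 and 0.39).

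The genes for making and breaking down trehalose, a storage sugar that protects stressed cells, moved alike. tps1, the trehalose-6-phosphate synthase gene, had 161, 458, 1135, 254, 282 and 324 normalised CPM in wt, 196, 404, 1003, 349.9, 465 and 300.2 in clr4D, and 166, 576, 799.9, 340, 634 and 303 in dcr1D. A lower second high at 10 h appears in dcr1D (634) and, smaller, in clr4D (465). ntp1, the neutral trehalase gene, had 93.4, 336, 866, 209.9, 246 and 212 in wt, 154, 346, 739, 254, 272 and 264 in clr4D and 209, 354, 669, 251, 218 and 275 in dcr1D. At 2 h the log2 fold changes were 2.56 for tps1 (SE 0.25) and 2.37 for ntp1 (SE 0.23), each with an edgeR adjusted p of 7.2e-08.

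atf1, the transcription factor gene, rose less. It had 115, 263, 414, 189, 197 and 227 normalised CPM in wt, 112, 237, 369.7, 164, 223 and 150.1 in clr4D and 133, 242, 273, 147, 274 and 156 in dcr1D. In dcr1D its 10 h value was thus as high as its 2 h value, whereas in wt and clr4D 2 h was highest. The log2 fold change at 2 h was 1.57 (SE 0.22, edgeR adjusted p = 5.06e-06).

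**Figure D2:**
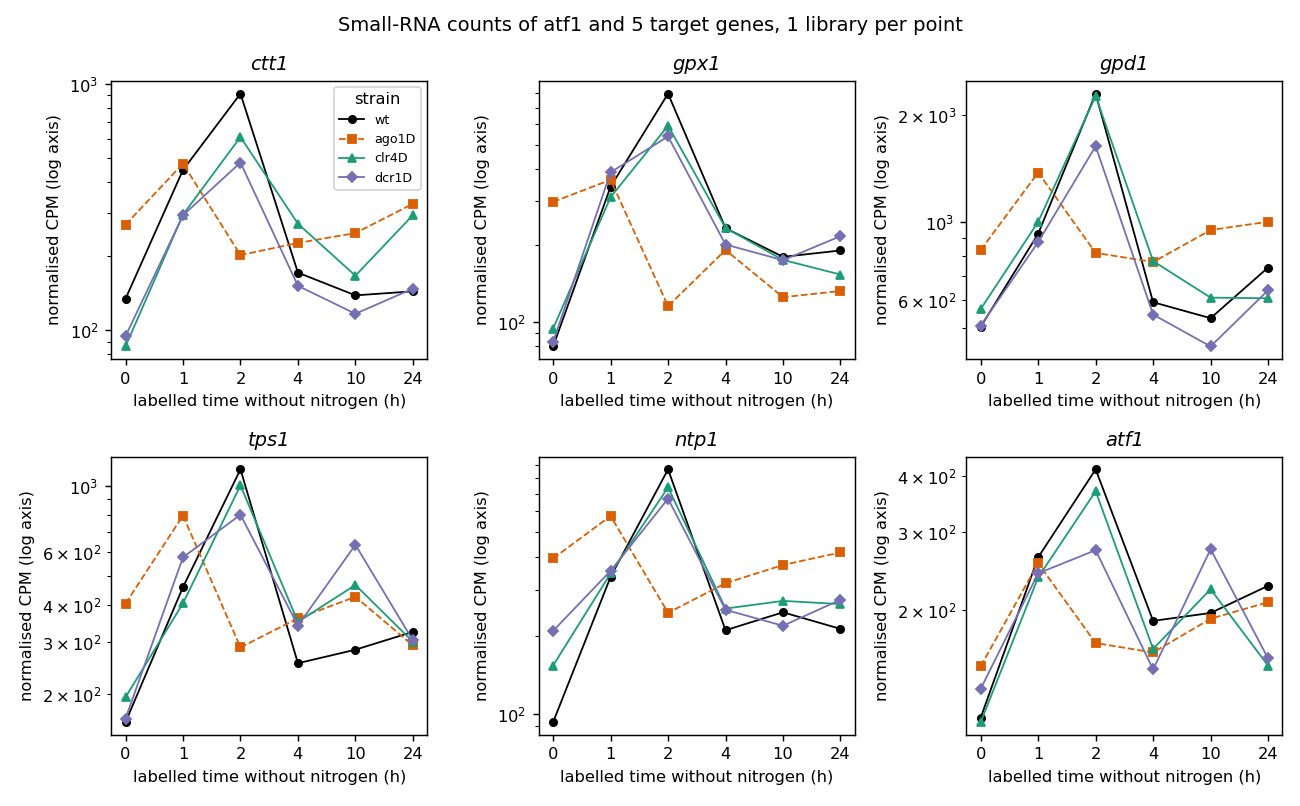
Normalised CPM (log axis) of ctt1, gpx1, gpd1, tps1, ntp1 and atf1 against labelled hours without nitrogen, 1 point per library and 1 line per strain. The solid lines of wt, clr4D and dcr1D are highest at 2 h in 15 of 15 profiles of the first 5 genes, while the dashed ago1D line is highest in the library labelled 1 h in all 6.

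Counting over these strains, 2 h was the highest of the 6 times in all 3 strains for 5 of the 10 genes (ctt1, gpx1, gpd1, tps1 and ntp1), and the ratio of 2 h to 0 h in a single strain ran from 3.21 to 9.96 among them. In ago1D the library labelled 1 h was highest for these 5 genes and for atf1, the same library whose whole profile was closest to 2 h. ctt1 in ago1D had 269, 475, 202, 226, 248 and 326 normalised CPM in labelled order. gpx1 had 297, 363, 115, 192, 125 and 132. The library labelled 2 h was thus the lowest of the 6 for both, and for tps1 (287) and ntp1 (245).

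Of the 10 genes, 9 passed the low-count filter of the time test, pyp2 being left out for its few counts. None of the 9 fell at any time. At 1 h, 6 of 9 rose (ctt1, gpx1, gpd1, tps1, ntp1 and atf1), where 16.9% of the 3928 genes tested rose and 16.6% fell. At 2 h these 6 and cta3 rose, 7 of 9, against 18.8% of all genes higher and 17.8% lower, and the median log2 fold change of the 9 was 2.01 beside 0.03 over all genes. At 4 h 5 of 9 rose (ctt1, gpx1, tps1, ntp1 and cta3), with 14.9% of genes higher and 14.8% lower. At 10 h 5 rose (gpx1, tps1, ntp1, atf1 and cta3), with 23.2% higher and 20.9% lower. At 24 h 6 rose (those 5 and ctt1), with 22.4% higher and 17.2% lower. For a change at any time 7 of 9 passed, beside 57.9% of all genes. The later counts depended on which strains were fitted. Without clr4D 1 gene passed at 4 h, 3 at 10 h and 1 at 24 h, and without dcr1D 3 passed at 4 h. Leaving out a strain gave 1 to 7 genes at 24 h. At 24 h most folds stayed without clr4D: tps1 had 0.99, atf1 0.64, ntp1 0.72 and cta3 1.71, with larger SEs, while ctt1 went from 0.93 to 0.41. Without wt ntp1 had 0.41 at 4 h and 0.38 at 10 h and atf1 0.33 at 24 h, and none of these passed. cta3 then had 1.12, 1.66 and 1.98 at 4, 10 and 24 h, and each passed. In DESeq2 ntp1 at 4 h (0.64, adjusted p = 0.0545) and atf1 at 24 h (0.59, adjusted p = 0.0686) did not pass.

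**Figure D3:**
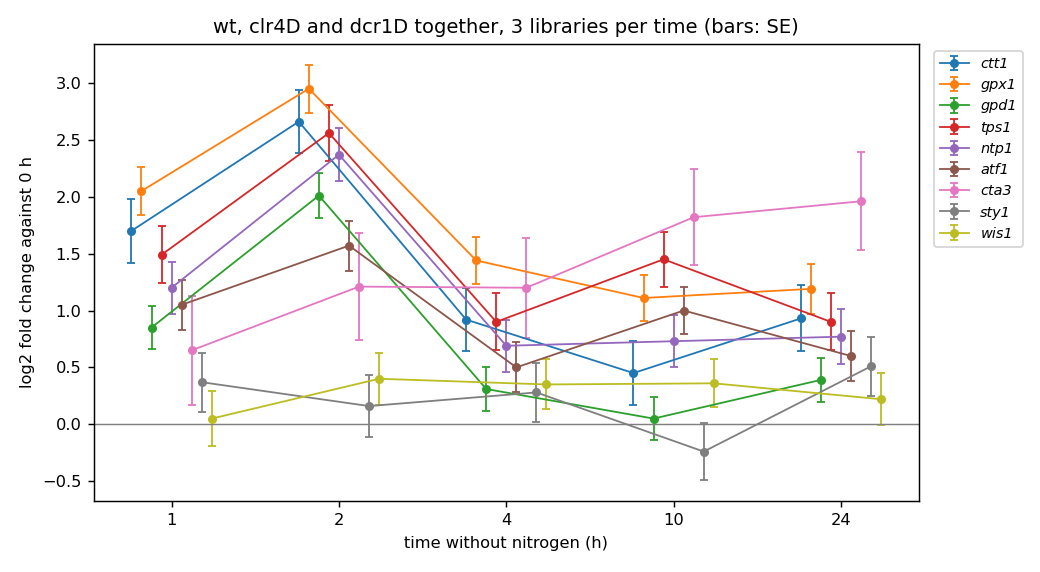
Log2 fold change against 0 h (bars: SE) at 1, 2, 4, 10 and 24 h for the 9 genes tested, fitted over wt, clr4D and dcr1D with 3 libraries per time; points are set slightly apart for legibility. The 5 protective targets and atf1 are highest at 2 h (1.57 to 2.95), cta3 goes on to 1.96 at 24 h, and sty1 and wis1 stay between -0.24 and 0.51.

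The other genes of the pathway were read from a list of 20 that holds no member: the phosphorelay and MAP kinase kinase kinases above Wis1, phosphatases, and partners and substrates of Sty1. At 2 h 14 rose, 1 fell and 5 did not pass, beside 18.8% of all genes higher and 17.8% lower, with a median of 0.90 beside 0.03 over all genes. Those of smallest p for a change at any time were tpx1, a peroxiredoxin that relays peroxide signals to Sty1, srk1, a kinase bound and activated by Sty1, prr1, a response regulator, and win1, a MAP kinase kinase kinase. At 2 h their log2 fold changes were 1.89 (SE 0.23), 2.02 (SE 0.26), -0.71 (SE 0.22) and 1.20 (SE 0.22), prr1 being the 1 that fell. At 1 h 10 rose and 1 fell, at 4 h 10 and 1, at 10 h 13 and 1 and at 24 h 11 and 1, where 16.9%, 14.9%, 23.2% and 22.4% of all genes rose and 16.6%, 14.8%, 20.9% and 17.2% fell. For any time 16 of 20 passed, beside 57.9% of all genes.

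A second list held 21 other stress-induced genes, of which 18 were tested by time. At 2 h 9 rose, 1 fell and 8 did not pass, beside 18.8% higher and 17.8% lower (median 0.64 beside 0.03). The 4 of smallest p over time each rose at 2 h: rds1 by 3.47 (SE 0.31), the small heat-shock gene hsp9 by 3.67 (SE 0.28), the metallothionein gene zym1 by 4.69 (SE 0.48) and ish1 by 2.30 (SE 0.26). The 1 that fell was hsp16, a small heat-shock chaperone gene (-1.14, SE 0.42, edgeR adjusted p = 0.0351).

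cta3 and pyp2 behaved otherwise: they differed between strains. cta3 encodes a P-type cation-transporting ATPase of the cell membrane that Sty1 and Atf1 induce under salt stress. In wt it had 5.84, 38.9, 51.2, 11.8, 29.2 and 10.8 normalised CPM at 0, 1, 2, 4, 10 and 24 h, from 3, 8, 12, 4, 12 and 3 counts. In ago1D it had 168, 259, 182, 314, 489.7 and 882 normalised CPM, from 65, 60, 98, 172, 361 and 127 counts. In dcr1D it had 199, 167, 171, 401, 498 and 722 normalised CPM, from 237, 49, 47, 185, 456 and 176 counts. In clr4D it had 44.3, 122, 211, 152, 273 and 258 normalised CPM, from 17, 40, 52, 54, 195 and 79 counts. Each deletion strain lay above wt at 6 of 6 matched times, and the ago1D and dcr1D ranges do not overlap that of wt, while that of clr4D does through its 0 h library.

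With terms for strain and time over all 24 libraries, cta3 rose against wt by a log2 fold change of 3.89 in ago1D (SE 0.42, edgeR adjusted p = 2.1e-06), 2.82 in clr4D (SE 0.42, adjusted p = 0.000466) and 3.87 in dcr1D (SE 0.42, adjusted p = 3.08e-06). These are 14.8-fold, 7.08-fold and 14.6-fold. cta3 reached 10 counts in 2 of 6 wt libraries and in 6 of 6 of each deletion strain. The low-count filter works on CPM (10 counts at the median library size), which raw counts only approximate. On CPM too, cta3 passed it mainly through the deletion strains. Without that filter, on the same counts, it rose by 3.89, 2.82 and 3.89 (edgeR adjusted p = 2.27e-07, 9.31e-05 and 2.67e-07). It passed in all 3 contrasts under each of 13 alternatives, which gave 3.49 to 4.41, 2.59 to 3.11 and 3.53 to 4.39. Without the 3 ago1D libraries that go against their labels the ago1D value was 4.14.

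pyp2, the phosphatase gene of the feedback loop, had 9.72, 24.3, 12.8, 5.91, 7.30 and 14.4 normalised CPM in wt, from 5, 5, 3, 2, 3 and 4 counts. In ago1D it had 23.2, 34.6, 26.0, 27.4, 42.1 and 153 normalised CPM, in clr4D 39.1, 18.2, 24.4, 22.6, 65.9 and 169.7, and in dcr1D 19.3, 30.7, 32.7, 23.8, 75.3 and 135. The 10 h and 24 h libraries were the highest of every deletion strain, while the range of the earlier ones overlaps that of wt. Matched by labelled time, pyp2 lay above wt at 6, 5 and 6 of 6 times in ago1D, clr4D and dcr1D. pyp2 reached 10 counts in 0 of 6 wt libraries and in 4, 3 and 4 of 6 in ago1D, clr4D and dcr1D. On CPM too, it passed the low-count filter only through the deletion strains, where it is high. Its values are therefore given with that limit. In the strain fit its log2 fold change was 1.90 in ago1D (SE 0.38, edgeR adjusted p = 0.00382), 2.09 in clr4D (SE 0.37, adjusted p = 0.00354) and 2.01 in dcr1D (SE 0.37, adjusted p = 0.00285). Without the low-count filter, where any gene with a count enters, it rose by 1.90, 2.06 and 2.02 (edgeR adjusted p = 0.00229, 0.00147 and 0.00136). That setting rests on the same few wt counts and does not lift the limit. The call was lost without the 24 h libraries in ago1D (1.48, adjusted p = 0.0691) and clr4D (1.65, adjusted p = 0.145), and without the 10 h libraries in clr4D (1.82, adjusted p = 0.0748) and dcr1D (1.64, adjusted p = 0.0715). Without the time term its fold changes were as large (1.93, 2.28 and 2.12) but their SEs rose to 0.66 to 0.68, and none passed (adjusted p = 0.25, 0.336 and 0.159).

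**Figure D4:**
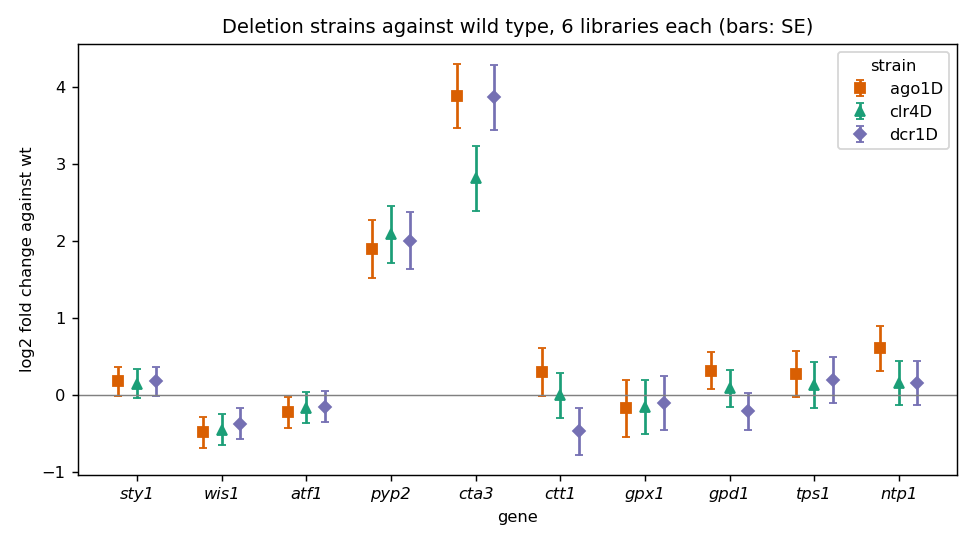
Log2 fold change of each of the 10 genes against wt (bars: SE) in ago1D, clr4D and dcr1D, 6 libraries per strain matched by labelled time. cta3 (2.82 to 3.89) and pyp2 (1.90 to 2.09) stand above the other 8 genes, whose values lie between -0.48 and 0.61.

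In each deletion strain cta3 and pyp2 were the only ones of the 10 to pass, and 0 fell. This count is no support for the pathway as a group, since both entered through the strains where they are high. Of the 4220 genes tested, 3.06% were higher and 1.26% lower in ago1D, 0.829% and 0.0711% in clr4D, and 1.87% and 0.664% in dcr1D. The 3 comparisons share the wt libraries. The 8 other genes, the 5 protective targets and the rest of the cascade, did not pass in any of them. Their log2 fold changes ran from -0.48 to 0.61 in ago1D, -0.47 to 0.20 in dcr1D and -0.45 to 0.16 in clr4D. Since these fits hold the 3 ago1D libraries that go against their labels, not passing does not show equal levels. The smallest adjusted p among the 8 genes was that of wis1 in ago1D, given above. The trehalase gene ntp1 (0.61 in ago1D, SE 0.29, edgeR adjusted p = 0.275) passed without the 3 ago1D libraries that go against their labels (0.73, SE 0.20, adjusted p = 0.0282). Without the 2 h libraries of all strains ntp1 (0.99, adjusted p = 0.00536) and gpd1 (0.59, adjusted p = 0.0461) passed in ago1D.

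Spore and M-cell genes moved with some of these libraries. The summed level of 5 markers of sporulating cells, as CPM of all gene counts, was 227 to 348 in wt, 246 to 675 in ago1D, 162 to 69400 in dcr1D and 179 to 20900 in clr4D, highest in the 10 h libraries of dcr1D and clr4D. The gene isp3 made up most of these highest sums, with 47020 of 49921 counts in dcr1D and 11165 of 12261 in clr4D. In these strains meu10 had at most 2224 and 747 counts per library, spn5 256 and 95, and mei4 96 and 45. spo15 had at most 325 and 209, beside 148 in wt. The summed level of 5 markers of M cells, the other mating type, was 42.2 to 116 in wt, 51.9 to 126 in ago1D, 62.7 to 3089 in dcr1D and 72.5 to 4275 in clr4D, and no marker was at 0 over a whole strain. Without the 10 h libraries of clr4D and dcr1D, an alternative chosen after seeing the data, cta3 rose by 2.76 and 3.85 and pyp2 by 1.96 and 1.77 in these strains. That alternative keeps the 24 h library of dcr1D, where its M-cell sum was highest. In ago1D, where the 2 sums reached 675 and 126, cta3 rose by 3.89 and pyp2 by 1.90, as given above. Whether sporulating or M cells bear on the strain differences of cta3 and pyp2 was not tested.

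Between deletion strains 0 of 10 genes passed in edgeR. At an unadjusted p under 0.05 there were 2 between ago1D and dcr1D, 1 between ago1D and clr4D and 1 between clr4D and dcr1D, and DESeq2 called 0 in each. The 2 between ago1D and dcr1D were ctt1 (0.77, edgeR unadjusted p = 0.0217) and gpd1 (0.53, unadjusted p = 0.0378). Without ago1D 0 h, 1 h and 2 h, 2 of the 10 genes passed between ago1D and dcr1D, neither of them cta3 or pyp2. Of all genes 0.924%, 1.07% and 0.142% passed. cta3 had a log2 difference of 1.07 between ago1D and clr4D (SE 0.34, edgeR adjusted p = 0.191), -1.04 between clr4D and dcr1D (SE 0.34, adjusted p = 0.325) and 0.02 between ago1D and dcr1D (SE 0.33). When only the 12 libraries of clr4D and dcr1D were fitted, cta3 was lower in clr4D (-1.0, adjusted p = 0.00553). Without the 2 h libraries it was higher in ago1D than in clr4D (1.30, adjusted p = 0.0199). pyp2 differed by -0.18 to 0.07 in these pairs.

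Of the 20 other pathway genes none passed in any strain against wt in edgeR (medians -0.05, -0.11 and -0.04 in ago1D, clr4D and dcr1D, beside -0.02, -0.02 and -0.01 over all genes). The smallest p in the list was that of the response regulator prr1, with -0.71 in ago1D (SE 0.21, edgeR adjusted p = 0.0517) and -0.68 in clr4D (SE 0.21, adjusted p = 0.166), and in dcr1D that of mak3, a histidine kinase that senses peroxide (-0.41, SE 0.16, adjusted p = 0.185). Of 19 other stress genes tested, 8 rose in ago1D, 2 in clr4D and 5 in dcr1D and none fell, beside 3.06%, 0.829% and 1.87% of all genes higher, with medians of 0.89, 0.05 and 0.49 beside -0.02, -0.02 and -0.01. They were led by the chaperone genes hsp16, with 4.69 in ago1D (SE 0.42), 2.29 in clr4D (SE 0.42) and 3.70 in dcr1D (SE 0.42), and ssa1, with 2.54 (SE 0.25), 1.17 (SE 0.24) and 1.60 (SE 0.24). hsp104, a disaggregase gene, rose by 1.81 in ago1D (SE 0.22) and 0.85 in dcr1D (SE 0.22), obr1 by 1.51 (SE 0.22) and 1.09 (SE 0.22), and caf5, a membrane transporter gene, by 2.23 (SE 0.36) and 1.51 (SE 0.37). In wt hsp16 had 1 to 22 counts per library and caf5 0 to 20, so their folds rest on few wt counts. Like cta3, hsp16 passed the low-count filter mainly through the deletion strains, and the counts of this list hold that limit too.

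Late libraries (10 and 24 h) were compared with the 4 earlier ones within each strain. pyp2 rose late in clr4D (log2 fold change 2.04, SE 0.45, edgeR adjusted p = 0.0204) and dcr1D (1.96, SE 0.45, adjusted p = 0.0145), 1 of 10 genes in each, beside 3% of 5062 genes higher and 0.356% lower in clr4D and 2.9% higher and 0.533% lower in dcr1D. It had 1.60 in ago1D (SE 0.48, adjusted p = 0.693) and -0.22 in wt (SE 0.70). Counting 4 h as late gave 1.55 in clr4D (adjusted p = 0.292) and 1.5 in dcr1D (adjusted p = 0.337). In clr4D the fold stayed near its size without 1, 2 or 4 h (1.93, 2.00 and 1.97) and fell to 1.28 without 24 h, and none of these passed. In dcr1D it was 1.79, 2.04 and 1.93 without 0, 1 or 4 h, with adjusted p values of 0.0723, 0.0531 and 0.0632. In ago1D pyp2 passed without the 10 h libraries (2.39, adjusted p = 0.0144).

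In wt 0 of 10 genes passed in edgeR, with 0 at an unadjusted p under 0.05 and 0 in DESeq2, beside 0.138% of all genes. In ago1D 0 of 10 passed in edgeR, with 2 unadjusted and 0 in DESeq2, beside 0% of all genes, where 280 of 5062 had an unadjusted p under 0.05 and DESeq2 called 20. The interaction tests whether a strain's late change departs from that of wt. It called 0 of 10 genes and 0% of all genes in edgeR in ago1D, 0% in clr4D and 0% in dcr1D. At an unadjusted p under 0.05 there was 1 member in each, with 147, 327 and 274 of all genes, and DESeq2 called 0 members and 0, 2 and 13 genes. For pyp2 the interaction was 1.82 in ago1D, 2.26 in clr4D and 2.18 in dcr1D (SE 0.86, 0.84 and 0.84), with edgeR adjusted p values of 1, 0.646 and 0.744, so its late rise was not shown to differ from wt.

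cta3 also rose over time in the fit of wt, clr4D and dcr1D, by 1.21 at 2 h (SE 0.47, edgeR adjusted p = 0.0493), 1.20 at 4 h (SE 0.44, adjusted p = 0.041), 1.82 at 10 h (SE 0.42, adjusted p = 0.00139) and 1.96 at 24 h (SE 0.43, adjusted p = 0.00101). Its highest library was that of 24 h in ago1D and dcr1D, that of 10 h in clr4D and that of 2 h in wt, and a difference in shape was not tested. wt had 3 counts at 0 h and 3 at 24 h. In dcr1D the 2 h level lay below that of 0 h, and the 2 h value was 2.54 without dcr1D, 0.73 without wt (adjusted p = 0.133) and 1.07 with ago1D added (adjusted p = 0.172). None of the 4 passed when clr4D was left out (0.67, 0.94, 1.42 and 1.71, adjusted p = 0.521, 0.33, 0.0916 and 0.0597).

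Most of cta3 is also annotated on the other strand, as the non-coding RNA SPNCRNA.1374, which lies wholly within cta3 and covers 76.5% of its exon length. A feature within another would have had no counts if the strands had been joined, and SPNCRNA.1374 had 196, so both strands can be read. In wt the counts over 6 libraries were 42 for cta3 and 37 for SPNCRNA.1374, a cta3 share of 53.2% (95% exact binomial interval 41.6% to 64.5%). In ago1D they were 883 and 55 (94.1%, 92.4% to 95.6%), in clr4D 437 and 57 (88.5%, 85.3% to 91.1%) and in dcr1D 1150 and 47 (96.1%, 94.8% to 97.1%). The intervals cover counting error only. The higher counts of the deletion strains were thus those assigned to cta3 and not to SPNCRNA.1374. The strand setting is not given, and its orientation was not checked. SPNCRNA.1374 had log2 fold changes against wt of 0.44 in ago1D (SE 0.36), 0.29 in clr4D (SE 0.36) and -0.28 in dcr1D (SE 0.37), none of which passed (edgeR adjusted p = 0.57, 0.833 and 0.725). In wt SPNCRNA.1374 had more counts than cta3 at 0, 4, 10 and 24 h (4 against 3, 6 against 4, 14 against 12 and 11 against 3).

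**Figure D5:**
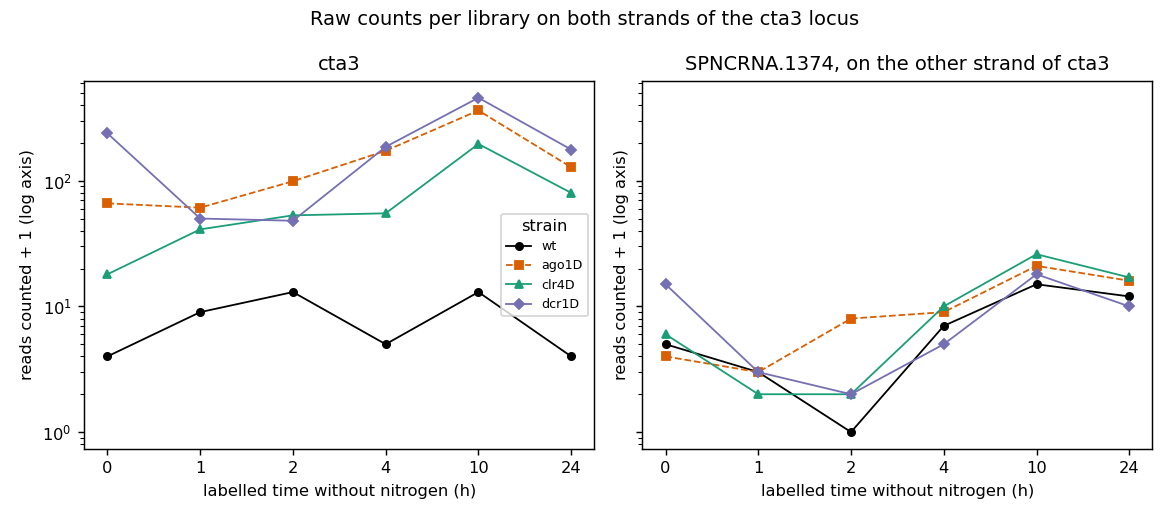
Raw counts plus 1 (log axis) per library for cta3 and for SPNCRNA.1374 on the other strand, against labelled hours without nitrogen, 1 line per strain. The deletion strains stand above wt at every time for cta3 (17 to 456 counts against 3 to 12), whereas the 4 lines of SPNCRNA.1374 run together between 0 and 25 counts.

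sty1 is likewise covered over 82% of its length by a non-coding RNA of the other strand, SPNCRNA.622. sty1 held 185 and SPNCRNA.622 39 counts in wt, a share of 82.6% (77% to 87.3%), and the share was 78.6% in ago1D (73.9% to 82.9%), 68.4% in clr4D (63.2% to 73.2%) and 81.4% in dcr1D (77.3% to 85%). The 24 h library of clr4D held 63 of its 112 SPNCRNA.622 counts, and without the 24 h libraries, an alternative chosen after seeing the data, the clr4D share was 79.8% (74.2% to 84.7%), beside 86.7% in wt, 80.1% in ago1D and 83.6% in dcr1D. SPNCRNA.622 rose at 24 h against 0 h over wt, clr4D and dcr1D by 2.58 (SE 0.43, edgeR adjusted p = 5.38e-05), while sty1 had 0.51 (SE 0.26, adjusted p = 0.124). Against wt SPNCRNA.622 did not pass (0.81, 1.07 and 0.35). The other overlaps were shorter, at most 330 bases between ntp1 and SPNCRNA.1327, which had 69 counts in all beside 3118 for ntp1.

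The profiles of the 10 genes over the 24 libraries were compared by Spearman correlation of normalised log2 CPM, given as a description of libraries that share strain, time and depth. Among members the highest were ctt1 with gpd1 (0.905), gpd1 with ntp1 (0.897) and ctt1 with ntp1 (0.881), and pyp2 with cta3 had 0.775. sty1 and wis1 had the lowest, -0.509. Of 4210 other genes, srk1 was the closest to ctt1 (0.899) and ntp1 (0.924) and the second closest to gpd1 (0.877). gpx1 was closest to vip1 (0.936), tps1 to SPAC22F8.05 (0.905), atf1 to snx41 (0.883), and gpd1 to SPBC725.03 (0.919). cta3 was closest to the protein kinase gene ppk31 (0.891), pmc1 (0.889) and the non-coding RNA SPNCRNA.857 (0.86), and pyp2 to mug108 (0.823). The kinase genes had no close match, their nearest being pcr1 for sty1 (0.677), which encodes the partner of Atf1, and fmd1 for wis1 (0.734).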

How the data were processed

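The authors deposited raw read counts for each transcript, 1 table per library, with 6878 features. Per the submitters' processing notes, the tools were cutadapt, Bowtie2 2.1.0 and HTSeq 0.6.1, with assembly ASM294v2. The cutadapt version and the strand setting are not given in the sources used here. That the strands were counted apart was read from overlapping features, and their orientation was not checked. The 5 HTSeq summary lines were left out of library sizes and tests. The supplied annotation is of another assembly (ASM294v3) and served only for names, classes, exon lengths and overlaps (6707 features, 97.51%, matched). Exon lengths and overlaps were computed from its coordinates, which were not compared with those of ASM294v2. No sequence was read from it, and promoter motifs were not analysed here.

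Counts were tested with edgeR 4.0.16 (quasi-likelihood F-test, R 4.3.3) with TMM factors of 0.568 to 1.603, edgeR's low-count filter (minimum count 10) and Benjamini-Hochberg adjustment over all genes tested, threshold 0.05. Strains were fitted as strain plus time (24 libraries, 4220 genes, biological coefficient of variation 0.297), times likewise over wt, clr4D and dcr1D (18 libraries, 3928 genes, 0.207), and late against early times as strain by period (5062 genes, 0.401). Alternatives were DESeq2 1.42.0, total-count scaling, no low-count filter, other sets of libraries and each time or strain left out. The scripts were tested on simulated data. No pair of libraries was identical.

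The 10 genes, the 2 lists of other genes, the markers and the tests were chosen with earlier results of these data known. From the lists, genes were named out of the 4 of smallest p in each strain contrast against wt and over time, and for each of the 10 genes the closest by Spearman correlation (mean log2 CPM above 3) were ranked; hsp16 at 2 h was named after its value was seen.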

Additional observations from a re-analysis of the deposited data

Results flagged for a closer look

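In 40 groups of 6 libraries (10 genes in 4 strains) the highest or lowest library was tested for standing apart, and 12 were picked out, where chance gives about 1 in 20. The libraries of a strain are at different times, so a course with a single high time is picked out too. Of the 12, 9 were 2 h libraries of the protective targets. gpd1 stood at 2305 normalised CPM in wt (next 924.7), 2271 in clr4D (next 999.3) and 1636 in dcr1D (next 875.5). tps1 stood at 1135 in wt (next 457.5) and 1003 in clr4D (next 465.1), ntp1 at 866.4 in wt (next 335.8), 739.3 in clr4D (next 346.2) and 669 in dcr1D (next 354.3), and gpx1 at 793.9 in wt (next 340.7). In ago1D, tps1 stood apart in the library labelled 1 h with 794.6 (next 424.6). pyp2 stood apart at 24 h with 152.8 in ago1D (next 42.05) and 169.7 in clr4D (next 65.85), from 22 and 52 counts.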

How the results depend on the processing

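Of 192 counts of members recomputed under an alternative, 156 were within 1.5 times the reported count, and of 816 single-gene values 29 changed sign, none of them a value that had passed. The labels give no replicate numbers, so libraries were paired across strains only by labelled time, through the time term. Against wt, 1 member passed in each of ago1D, clr4D and dcr1D without the time term, and 1 when only the 12 libraries compared were fitted (9 members tested); with a time left out 1 to 4, 1 to 2 and 1 to 2 passed. Between ago1D and dcr1D 2 passed without the 3 ago1D libraries that go against their labels (0 to 2 with a time left out), between ago1D and clr4D 0 to 1 with a time left out, and between clr4D and dcr1D 1 in the 12 libraries. At 4 h 3 passed in DESeq2, 8 with total-count scaling and 0 with ago1D added (1 to 4 with a strain left out). At 10 h 8 passed with total-count scaling (3 to 5 with a strain left out), and at 24 h 2 with ago1D added (1 to 7). Late against early, total-count scaling gave 2 in clr4D and 2 in dcr1D, counting 4 h as late 0 and 0, and leaving out a time 0 to 1 in each of ago1D, clr4D and dcr1D.

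Total-count scaling moved the median of all genes by 0.16 in ago1D against wt, by 0.12, 0.61, 0.46, 0.85 and 1.13 at 1, 2, 4, 10 and 24 h, and by 0.46 to 0.88 in late against early times, and the calls it adds are to be read against those shifts. Values that changed sign were small log2 differences. Under total-count scaling these were gpx1 in ago1D (0.09), gpd1 and ctt1 in clr4D (-0.02 and -0.07), pyp2 between ago1D and dcr1D (0.09), and late pyp2 and cta3 in wt (0.25 and 0.07). Without the time term they were tps1 and ctt1 in ago1D (-0.03 and -0.15) and ctt1 in clr4D (-0.18; -0.0024 without the low-count filter). Without clr4D 10 h and dcr1D 10 h, chosen after seeing the data, pyp2 between ago1D and dcr1D was 0.17. With a time left out, ranges that crossed 0 were -0.72 to 0.23 for gpx1 in ago1D; -0.004 to 0.23 for sty1 and -0.19 to 0.17 for ctt1 in clr4D; -0.16 to 0.03 for gpx1, -0.0086 to 0.31 for ntp1 and -0.0039 to 0.39 for tps1 in dcr1D. Between deletions they were -0.20 to 0.13 for pyp2 and -0.07 to 0.11 for cta3 (ago1D against dcr1D) and -0.10 to 0.18 for pyp2 (clr4D against dcr1D), and late in wt -0.69 to 0.23 for pyp2 and -1.19 to 0.34 for cta3. The cause of these changes was not tested. Depth limits pyp2 and cta3 most, with at most 5 and 12 counts per wt library.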
